A study of Homo sapiens with 9 samples.

Results

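Transcripts of 10 genes that restrain or follow the mitogen-activated protein kinase (MAPK) pathway were examined in SKOV3 cells, an ovarian cancer cell line. The genes are DUSP4, DUSP5, DUSP6, SPRY2, SPRY4, SPRED1, SPRED2, ETV4, ETV5 and PHLDA1. They were taken by symbol, with no threshold on their values but with earlier results of these data known, and all 10 were found among the 58735 genes of the count table. The study has 9 RNA libraries, 3 for each of 3 groups. WT CDK9 cells expressed WT-CDK9 under basal conditions. ALK inhibitor-treated WT CDK9 cells expressed the same WT-CDK9 and received an ALK inhibitor for 24 h. Tyr19Phe CDK9 cells expressed Y19F-CDK9, in which tyrosine 19 is replaced by phenylalanine, a residue that cannot be phosphorylated. All 9 libraries came from SKOV3 cells with an introduced CDK9, and no parental cells were among the groups. In other experiments of the study, CDK9 was re-expressed in SKOV3 cells depleted of their own CDK9. The paper does not state whether the sequenced cells were depleted in this way. The inhibitor, its dose and whether each line is a single clone are not given for this experiment, so the Tyr19Phe allele and the line that carries it cannot be told apart. The Tyr19Phe CDK9 cells carry no inhibitor label, so the direct comparison of these cells with ALK inhibitor-treated WT CDK9 cells sets the allele and the treatment against each other.

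Receptor tyrosine kinases such as ALK signal through RAS, RAF and MEK to the kinase ERK, and ERK switches on genes that limit the same cascade. DUSP4, DUSP5 and DUSP6 encode phosphatases that remove phosphate from MAPKs, with DUSP5 acting on ERK in the nucleus and DUSP6 acting on ERK in the cytoplasm. SPRY and SPRED proteins hold back signalling between the receptor and RAF. ETV4 and ETV5 are ETS transcription factors of the PEA3 family that are induced by ERK, and PHLDA1 encodes a pleckstrin homology-like domain protein whose transcript follows ERK activity. The repressor CIC holds several of these genes down when ERK is inactive, and its usual sites have the letters TGAATGAA, TGAATGGA, TCAATGAA or TCAATGGA.

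The promoters of DUSP6 and SPRY4 are shown because both genes are classical targets of this feedback circuit. SPRY4 was called in one of the comparisons below and DUSP6 in none. Each line gives the 250 bases before the start site of the gene in RefSeq (GRCh38.p14), 5′ to 3′ on the strand of the gene, and capitals mark a CIC site on the opposite strand. The first runs over chr12:89352502-89352751 and the second over chr5:142324248-142324497, both on the minus strand. Both stretches lie inside the genes as listed with the counts, which reach to 89353271 for DUSP6 and 142326455 for SPRY4.
DUSP6: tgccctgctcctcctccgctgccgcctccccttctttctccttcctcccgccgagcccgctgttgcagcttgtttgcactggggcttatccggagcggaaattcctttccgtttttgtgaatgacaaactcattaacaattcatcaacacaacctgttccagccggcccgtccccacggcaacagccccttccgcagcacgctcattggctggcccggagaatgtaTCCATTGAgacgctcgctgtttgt
SPRY4: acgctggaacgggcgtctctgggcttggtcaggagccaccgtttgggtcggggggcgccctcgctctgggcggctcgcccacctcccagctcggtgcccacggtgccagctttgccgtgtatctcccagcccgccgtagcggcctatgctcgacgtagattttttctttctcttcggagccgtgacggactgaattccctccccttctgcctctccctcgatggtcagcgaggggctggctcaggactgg
The site in capitals began 24 bases before the DUSP6 start, and a second copy of TCAATGGA on the opposite strand began 1 base after it. Windows from 250 bases before to 50 bases after a start were searched on both strands for the 4 CIC sites, the ETS site CCGGAAGT, the AP-1 site TGACTCA, the cyclic AMP response element TGACGTCA and the serum response element. Windows were found for 6 of the 10 genes, with 3 start sites for SPRY2, 2 for SPRED2 and 1 each for SPRY4, SPRED1, PHLDA1 and DUSP6. DUSP4, DUSP5, ETV4 and ETV5 were not matched. Apart from the DUSP6 sites, the only match was an AP-1 site that began 6 bases before the second SPRED2 start. Among 35116 promoter windows of the same length, TCAATGGA was present in 0.51%, the other CIC sites in 0.718% to 1.65%, the AP-1 site in 4.95%, the ETS site in 4.14%, TGACGTCA in 1.85% and the serum response element in 1.29%.

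Total counts ranged from 18169050 to 20974903 in the 6 libraries with WT CDK9 and from 26485891 to 29320184 in Tyr19Phe CDK9 cells. Counts were brought to a common library total as CPM and scaled by TMM, a normalization with 1 factor per library that assumes most genes are unchanged. Of the listed genes, 16350 passed the expression filter and were tested with edgeR's quasi-likelihood test, including all 10 feedback genes. A gene was called changed at an adjusted p under 0.05. ALK inhibitor replicate 2 and Tyr19Phe CDK9 replicate 3 stood apart, with 19944 and 20635 genes detected against 21911 to 22744 in the other libraries of their groups. ALK itself had between 0 and 5 counts per library and was not tested. CDK9, which the counts do not separate into introduced and endogenous, had a log2 fold change of -0.09 with the inhibitor (adjusted p = 0.665) and 0.18 in Tyr19Phe CDK9 cells (adjusted p = 0.106). In the direct comparison CDK9 was called higher in Tyr19Phe CDK9 cells, at 0.27 on the log2 scale (adjusted p = 0.00961). No group of CDK9 values overlapped another, with Tyr19Phe CDK9 cells highest and treated cells lowest. Libraries did not overlap for 19.6% of all tested genes with the inhibitor, 32.6% in Tyr19Phe CDK9 cells and 34.4% in the direct comparison. Of 8 epithelial and ovarian carcinoma markers, 6 reached 1 CPM, and CDH1 and MUC16 did not. Their summed level was 3699 to 3825 CPM in WT CDK9 cells, 4628 to 4669 CPM with the inhibitor and 3610 to 3817 CPM in Tyr19Phe CDK9 cells. The overlapping sums of WT and Tyr19Phe CDK9 cells hid changes in both directions. Of the 7 tested markers, 5 were called in Tyr19Phe CDK9 cells relative to WT CDK9 cells, beside 18% of all tested genes. KRT19, EPCAM and ERBB2 were lower, at -1.24, -0.82 and -0.29 on the log2 scale, and KRT8 and KRT18 were higher, at 0.38 and 0.39. Of the same 7, 2 were called with the inhibitor, beside 4.55% of all tested genes. These were ERBB2 and KRT19, both higher, at 0.54 and 0.21 on the log2 scale. The mean of ERBB2 was 1800 CPM in WT CDK9 cells and 2625 CPM in treated cells. None of 4 blood cell and 3 endothelial markers reached 1 CPM. Of 4 fibroblast markers, COL1A1 alone did, and the summed level of the list was 103 to 107 CPM in WT CDK9 cells, 115 to 149 CPM with the inhibitor and 31.5 to 45.5 CPM in Tyr19Phe CDK9 cells. The part of these markers in the results was not tested.

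The feedback genes were expressed over a wide range. Levels of different genes were compared as CPM per kb of the gene length listed with the counts. In WT CDK9 cells, PHLDA1 stood highest at 34.4 ± 1.08 CPM per kb (SD, n = 3), followed by DUSP5 at 19.4 ± 1.38 CPM per kb and SPRED2 at 12.03 ± 0.712 CPM per kb. The middle of the order held SPRED1 at 7.33 ± 0.0718, DUSP4 at 5.999 ± 0.0886 and SPRY2 at 3.32 ± 0.134 CPM per kb. ETV5 at 2.82 ± 0.166, SPRY4 at 2.58 ± 0.155 and ETV4 at 1.43 ± 0.360 CPM per kb followed, and DUSP6 was lowest at 0.795 ± 0.121 CPM per kb. PHLDA1 was thus 43.3-fold above DUSP6, a common readout of ERK activity. Among neighbours in this order, only the libraries of ETV5 and SPRY4 overlapped. With the inhibitor, the mean of ETV5 passed that of SPRY2, although the libraries of these 2 genes overlapped. In Tyr19Phe CDK9 cells, SPRED2 stood above DUSP5 and DUSP4 above SPRED1, without overlap of their libraries.

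**Figure D1:**
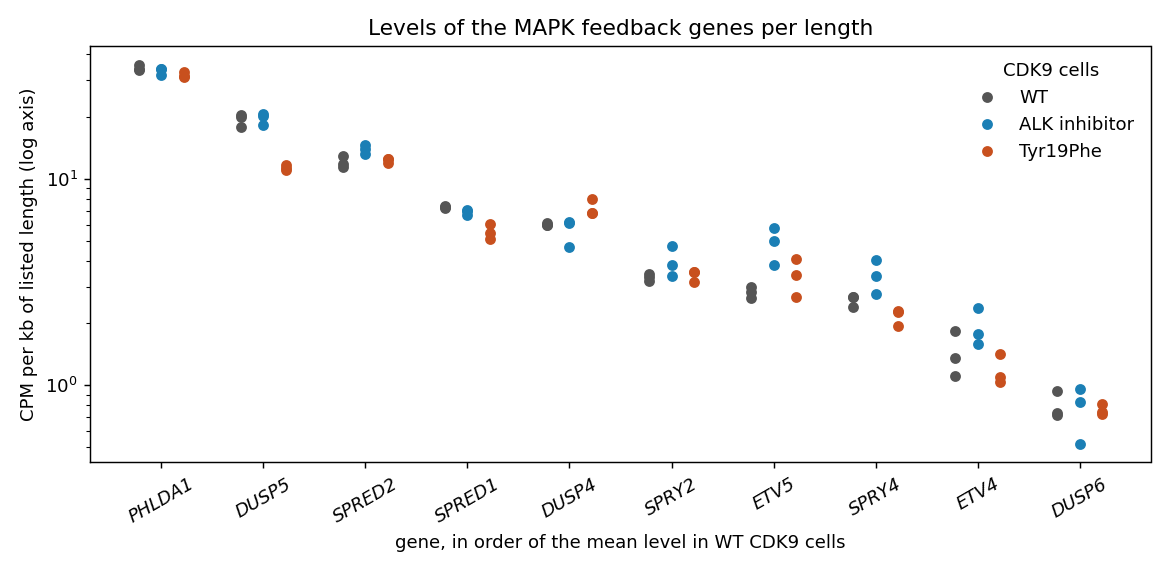
Level of each gene in CPM per kb of its listed length (log axis), with 1 point per library and genes in order of their mean in WT CDK9 cells. PHLDA1 is highest and DUSP6 lowest in all 3 groups, and the Tyr19Phe CDK9 points of DUSP5 lie below those of SPRED2.

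Relative to WT CDK9 cells, the inhibitor raised 1 of the 10 genes past the threshold, ETV5, and lowered none, with edgeR and with DESeq2 alike, while 3 had an unadjusted p under 0.05 (ETV5, SPRY4 and SPRED2, all higher). Over all tested genes, 4.55% were called in this comparison (1.82% higher and 2.73% lower) and 15.1% had an unadjusted p under 0.05. With 10 genes a single call is the smallest count above 0, so the share was not read as a result about the group. In Tyr19Phe CDK9 cells, 3 genes were called, DUSP5 and SPRED1 lower and DUSP4 higher, beside 18% of all tested genes (7.61% higher and 10.4% lower), and 4 had an unadjusted p under 0.05, beside 29%. When Tyr19Phe CDK9 cells were set directly against ALK inhibitor-treated WT CDK9 cells, 6 of 10 were called, beside 20.7% of all tested genes (9.57% higher and 11.1% lower), and 7 had an unadjusted p under 0.05, beside 31.5%. Of the called genes, DUSP5, SPRY4, SPRED1, ETV4 and ETV5 were lower and DUSP4 was higher in Tyr19Phe CDK9 cells. In the same comparison, 6 of 11 further DUSP, SPRY, SPRED and PEA3 genes and 6 of 12 other negative regulators were called. A share of this size was thus not particular to the 10 genes. The median log2 fold change of the 10 genes was 0.11 with the inhibitor, -0.09 in Tyr19Phe CDK9 cells and -0.27 in the direct comparison, beside -0.0010, 0.0035 and 0.0018 over all tested genes. The comparisons with WT CDK9 cells share the WT CDK9 libraries and are given side by side for each gene. In RNA from bulk cultures, fewer cells expressing a gene and less RNA per cell cannot be told apart. The labels do not say whether the 3 libraries of a group came from separate cultures, so the p-values rest on a spread between libraries that may be technical. For each gene, edgeR draws this spread towards a value shared with other genes. Taken alone, no gene could reach a two-sided p below 0.1 in an exact permutation test of 3 against 3 libraries. Log2 fold changes of called genes are given ± standard error.

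**Figure D2:**
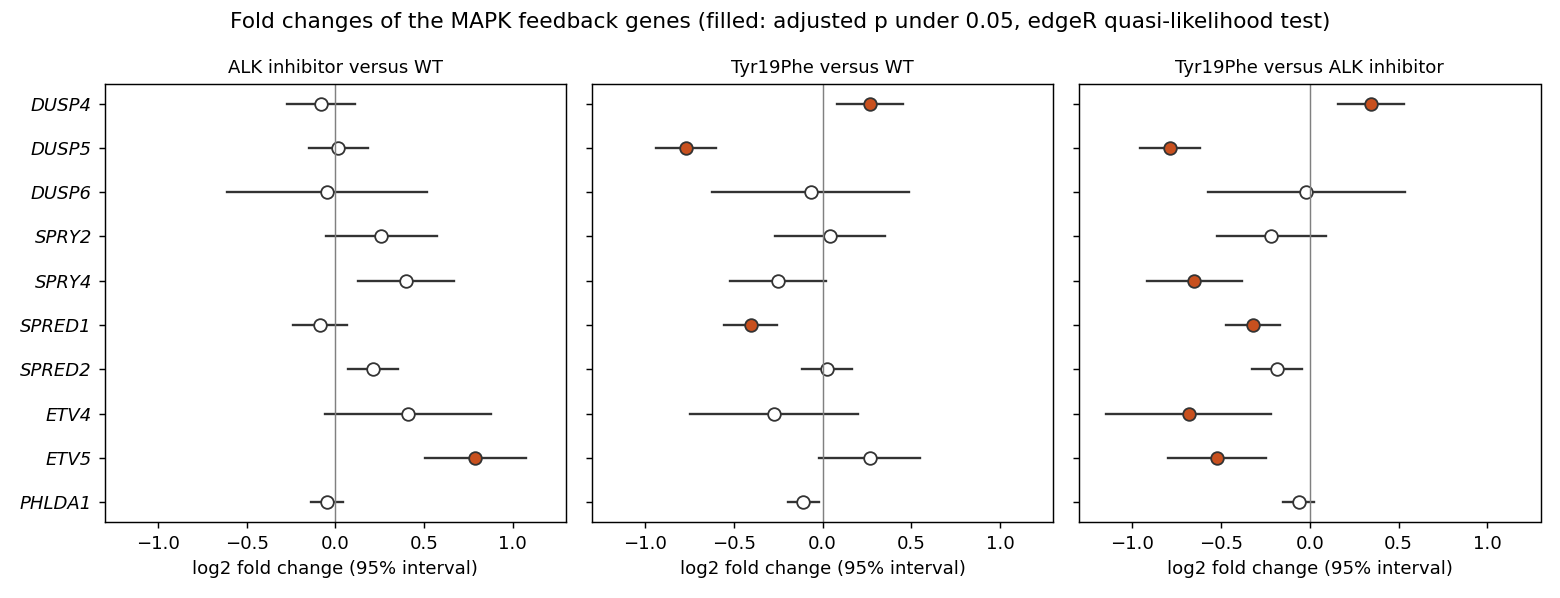
Log2 fold change of each gene (point) with its 95% interval (line) in the 3 comparisons, filled where the adjusted p of edgeR's quasi-likelihood test was under 0.05. ETV5 at 0.79 is the only filled point for the inhibitor, and DUSP5 at -0.77 is the lowest for Tyr19Phe CDK9. In the direct comparison, 9 of 10 points lie below 0 and 5 of these are filled, while 50.3% of all tested genes lie above 0.

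DUSP5, the nuclear ERK phosphatase (ENSG00000138166, chromosome 10 from 110497838 to 110511544, plus strand, hg38), showed the largest drop of the 10 genes in Tyr19Phe CDK9 cells. DUSP5 had 46.6, 53.5 and 51.9 CPM in WT CDK9 cells, 52.8, 53.5 and 47.4 CPM with the inhibitor and 28.8, 29.6 and 30.6 CPM in Tyr19Phe CDK9 cells. Every Tyr19Phe CDK9 library lay below every library with WT CDK9, while the treated and untreated WT CDK9 libraries overlapped. Its mean fell from 50.6 ± 3.60 CPM to 29.7 ± 0.927 CPM (SD, n = 3), a change of -41.4% (log2 fold change -0.77 ± 0.08, adjusted p = 2.06e-08). With the inhibitor, the log2 fold change was 0.02, with a 95% interval from -0.15 to 0.19 (adjusted p = 0.961). Tyr19Phe CDK9 cells were also lower than treated cells, with a log2 fold change of -0.79 ± 0.08 (adjusted p = 9.76e-09). Both calls held under all 17 alternatives in processing. In Tyr19Phe CDK9 cells, the median over the 24 tested genes within 5 Mb of DUSP5 was -0.0035 on the log2 scale.

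DUSP4, a nuclear phosphatase of several MAPKs (ENSG00000120875, chromosome 8 from 29333064 to 29350668, minus strand), moved in the other direction. Its level was 43.2, 44.3 and 43.1 CPM in WT CDK9 cells, 45.0, 33.9 and 44.5 CPM with the inhibitor and 49.3, 58.0 and 49.8 CPM in Tyr19Phe CDK9 cells. The Tyr19Phe CDK9 libraries lay above all others, and the low treated value belonged to replicate 2. Relative to WT CDK9 cells, DUSP4 was higher in Tyr19Phe CDK9 cells by 20.3% (log2 fold change 0.27 ± 0.09, adjusted p = 0.0398). This call was narrow. It was lost without any one of the WT CDK9 libraries (adjusted p = 0.110, 0.0604 and 0.0946 without replicates 1, 2 and 3), without Tyr19Phe CDK9 replicate 2 (adjusted p = 0.239) and with DESeq2 (adjusted p = 0.0516). Against treated cells the log2 fold change was 0.35 ± 0.09 (adjusted p = 0.00610), and this call was lost without ALK inhibitor replicate 2 (adjusted p = 0.0799) or Tyr19Phe CDK9 replicate 2 (adjusted p = 0.0687). With the inhibitor, DUSP4 had a log2 fold change of -0.08, with a 95% interval from -0.27 to 0.11 (adjusted p = 0.789).

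DUSP6, the cytoplasmic ERK phosphatase (ENSG00000139318, chromosome 12 from 89347232 to 89353271, minus strand), was read from only 44 to 101 counts per library. It had 3.33, 3.38 and 4.33 CPM in WT CDK9 cells, 4.41, 2.42 and 3.82 CPM with the inhibitor and 3.42, 3.35 and 3.77 CPM in Tyr19Phe CDK9 cells. All 3 groups overlapped, and both the highest and the lowest value were from treated cells. With the inhibitor, DUSP6 had a log2 fold change of -0.05 (95% interval from -0.61 to 0.52, adjusted p = 0.970) and in Tyr19Phe CDK9 cells one of -0.07 (95% interval from -0.62 to 0.49, adjusted p = 0.912). In the direct comparison it was -0.02, with an interval from -0.58 to 0.53 (adjusted p = 0.973). A change of DUSP6 within these intervals could not be told from none with these libraries. The intervals do not give a limit of detection.

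**Figure D3:**
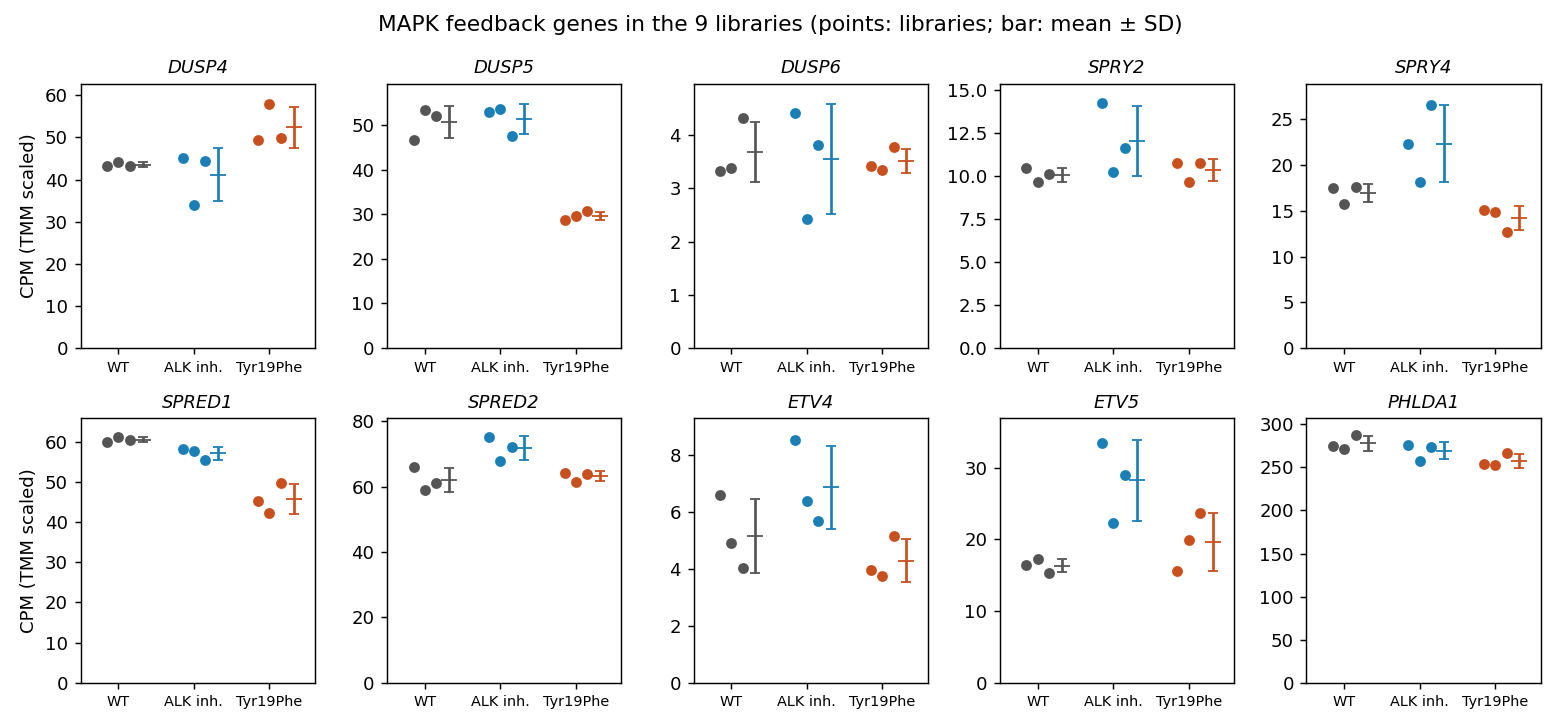
TMM-scaled CPM of each gene (vertical axes from 0, scaled per gene) in WT CDK9 cells, ALK inhibitor-treated WT CDK9 cells and Tyr19Phe CDK9 cells, with 1 point per library in the order of replicates 1 to 3 and the mean ± SD beside them. The Tyr19Phe CDK9 points of DUSP5 (28.8 to 30.6 CPM) and SPRED1 (42.3 to 49.6 CPM) lie below the other groups, and the treated points of ETV5 (22.2 to 33.5 CPM) lie above those of WT CDK9 cells.

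SPRED1, which brings the RAS inactivator neurofibromin to the membrane (ENSG00000166068, chromosome 15 from 38252326 to 38357249, plus strand), was the other gene called lower in Tyr19Phe CDK9 cells. SPRED1 had 59.9, 61.1 and 60.5 CPM in WT CDK9 cells, 58.2, 57.6 and 55.3 CPM with the inhibitor and 45.2, 42.3 and 49.6 CPM in Tyr19Phe CDK9 cells. The 3 groups did not overlap, with WT CDK9 cells highest and Tyr19Phe CDK9 cells lowest. The mean changed from 60.5 ± 0.593 CPM to 45.7 ± 3.69 CPM in Tyr19Phe CDK9 cells, which is -24.5% (log2 fold change -0.41 ± 0.07, adjusted p = 1.28e-04). With the inhibitor, the log2 fold change was -0.08 (95% interval from -0.24 to 0.07, adjusted p = 0.688), so the separation of these libraries did not pass the test. Tyr19Phe CDK9 cells lay below treated cells by a log2 fold change of -0.32 ± 0.07 (adjusted p = 0.00174). Both Tyr19Phe CDK9 calls held under all 17 alternatives. Over the 96 tested genes within 5 Mb of SPRED1, the median in Tyr19Phe CDK9 cells was -0.14 on the log2 scale, which leaves a difference of -0.26 for SPRED1, and the part of this chromosomal neighbourhood in the result was not tested. For the other 9 genes the corresponding medians were between -0.09 and 0.06.

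SPRED2, a relative of SPRED1 that inhibits RAF activation (ENSG00000198369, chromosome 2 from 65310851 to 65432637, minus strand), was not called in any comparison. It had 66.1, 58.9 and 61.0 CPM in WT CDK9 cells, 75.3, 68.0 and 72.1 CPM with the inhibitor and 64.1, 61.4 and 63.9 CPM in Tyr19Phe CDK9 cells. The treated libraries lay above all others, and those of WT and Tyr19Phe CDK9 cells overlapped. The log2 fold change with the inhibitor was 0.21 (95% interval from 0.07 to 0.35), with an adjusted p of 0.0833 that fell to 0.0434 when libraries were scaled by their totals alone. Relative to WT CDK9 cells, Tyr19Phe CDK9 cells had a log2 fold change of 0.03 (95% interval from -0.12 to 0.17, adjusted p = 0.862). The direct comparison gave -0.19 (95% interval from -0.33 to -0.05, adjusted p = 0.0517), which was called with DESeq2 (adjusted p = 0.0464), with a replicate block (adjusted p = 0.0450) and without ALK inhibitor replicate 2 (adjusted p = 0.0384).

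SPRY4, an inhibitor of receptor tyrosine kinase signalling (ENSG00000187678, chromosome 5 from 142310427 to 142326455, minus strand), separated the treated cells from the Tyr19Phe CDK9 cells. Libraries of WT CDK9 cells had 17.5, 15.8 and 17.6 CPM, those of treated cells 22.3, 18.2 and 26.6 CPM, and those of Tyr19Phe CDK9 cells 15.1, 14.9 and 12.7 CPM. No group overlapped another, with treated cells highest and Tyr19Phe CDK9 cells lowest. Tyr19Phe CDK9 cells were lower than treated cells with a change of -36.3% (log2 fold change -0.65 ± 0.13, adjusted p = 3.70e-04), and this call held under all 17 alternatives. Neither group was called against WT CDK9 cells, with a log2 fold change of 0.40 for the inhibitor (95% interval from 0.13 to 0.67, adjusted p = 0.0863) and -0.25 for Tyr19Phe CDK9 (95% interval from -0.52 to 0.02, adjusted p = 0.209). Without ALK inhibitor replicate 2, which had the lowest treated value, the inhibitor comparison was called, with a log2 fold change of 0.53 (adjusted p = 0.0199).

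SPRY2, the closest family member of SPRY4 in this set (ENSG00000136158, chromosome 13 from 80335976 to 80340951, minus strand), passed no test. Its values were 10.5, 9.66 and 10.2 CPM in WT CDK9 cells, 14.3, 10.3 and 11.6 CPM with the inhibitor and 10.8, 9.64 and 10.8 CPM in Tyr19Phe CDK9 cells. The groups overlapped, with treated replicate 1 above the rest. The log2 fold change was 0.26 with the inhibitor (95% interval from -0.05 to 0.57, adjusted p = 0.469), 0.04 in Tyr19Phe CDK9 cells (95% interval from -0.27 to 0.35, adjusted p = 0.902) and -0.22 in the direct comparison (95% interval from -0.53 to 0.09, adjusted p = 0.346).

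ETV5 (ENSG00000244405, chromosome 3 from 186046308 to 186110318, minus strand) was the one gene of the set called in the inhibitor comparison. Levels of ETV5 were 16.5, 17.3 and 15.3 CPM in WT CDK9 cells, 33.5, 22.2 and 28.9 CPM with the inhibitor and 15.6, 19.9 and 23.6 CPM in Tyr19Phe CDK9 cells. Every treated library lay above every WT CDK9 library, whereas Tyr19Phe CDK9 cells overlapped both groups. The mean rose from 16.4 ± 0.964 CPM to 28.2 ± 5.64 CPM, or by 72.8% (log2 fold change 0.79 ± 0.14, 95% interval from 0.50 to 1.07, adjusted p = 2.93e-04). Over the 17 alternatives its log2 fold change stayed between 0.65 and 0.94, with a largest adjusted p of 0.00939. Among all tested genes, 94.1% had a smaller absolute log2 fold change in this comparison. Tyr19Phe CDK9 cells had a log2 fold change of 0.27 against WT CDK9 cells (95% interval from -0.02 to 0.55, adjusted p = 0.212), and without Tyr19Phe CDK9 replicate 1 it was 0.41 (adjusted p = 0.0491). They were lower than treated cells by a log2 fold change of -0.52 ± 0.14 (adjusted p = 0.00500) although Tyr19Phe CDK9 replicate 3 lay above ALK inhibitor replicate 2. That call was lost without ALK inhibitor replicate 1 (adjusted p = 0.0772) or Tyr19Phe CDK9 replicate 1 (adjusted p = 0.0598).

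ETV4 (ENSG00000175832, chromosome 17 from 43527844 to 43579620, minus strand), read from 75 to 179 counts per library, was called in the direct comparison alone. It had 6.57, 4.91 and 4.01 CPM in WT CDK9 cells, 8.50, 6.37 and 5.68 CPM with the inhibitor and 3.96, 3.74 and 5.13 CPM in Tyr19Phe CDK9 cells. WT CDK9 cells overlapped both other groups, and the treated libraries lay above those of Tyr19Phe CDK9 cells. The log2 fold change was 0.41 with the inhibitor (95% interval from -0.06 to 0.88, adjusted p = 0.425), -0.27 in Tyr19Phe CDK9 cells (95% interval from -0.74 to 0.20, adjusted p = 0.482) and -0.68 between Tyr19Phe CDK9 and treated cells (standard error 0.23, adjusted p = 0.0302). The call was lost without ALK inhibitor replicate 1 (adjusted p = 0.201), Tyr19Phe CDK9 replicate 1 (adjusted p = 0.0876) or Tyr19Phe CDK9 replicate 2 (adjusted p = 0.114). In the listed coordinates, all 51777 bases of ETV4 lay within DHX8, a helicase gene on the opposite strand with 1231 to 1947 counts per library. With the inhibitor DHX8 stood at -0.07 on the log2 scale (adjusted p = 0.711) and in Tyr19Phe CDK9 cells at -0.22 (adjusted p = 0.0244). The value of DHX8 in the direct comparison, where ETV4 was called, is not given here. Whether strand was used in counting is not given in the sources used here, so reads of ETV4 and DHX8 may not be fully separated. Other genes that overlap the set, such as SPRY4-AS1 and ETV5-AS1, had at most 9 counts in any library.

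PHLDA1 (ENSG00000139289, chromosome 12 from 76025447 to 76033932, minus strand), the most abundant of the 10, hardly varied. It had 274, 271 and 287 CPM in WT CDK9 cells, 276, 258 and 273 CPM with the inhibitor and 254, 252 and 267 CPM in Tyr19Phe CDK9 cells. Tyr19Phe CDK9 libraries lay below those of WT CDK9 cells by a narrow margin, and treated cells overlapped both. With the inhibitor the log2 fold change was -0.05 (95% interval from -0.13 to 0.04, adjusted p = 0.725) and -0.11 in Tyr19Phe CDK9 cells (95% interval from -0.20 to -0.02, adjusted p = 0.0829). Between Tyr19Phe CDK9 and treated cells it was -0.06, with an interval from -0.15 to 0.03 (adjusted p = 0.343). With standard errors near 0.04, these are the narrowest intervals of the set.

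The groups of libraries did not overlap for 4 genes with the inhibitor (SPRY4, SPRED2 and ETV5 higher, SPRED1 lower), beside 19.6% of all tested genes (9.31% higher and 10.3% lower). In Tyr19Phe CDK9 cells this held for 5 genes (DUSP4 higher; DUSP5, SPRY4, SPRED1 and PHLDA1 lower), beside 32.6% of all tested genes (15.4% higher and 17.2% lower). In the direct comparison it held for 6 genes (DUSP4 higher; DUSP5, SPRY4, SPRED1, SPRED2 and ETV4 lower), beside 34.4% of all tested genes (16.7% higher and 17.7% lower).

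The treated libraries differed among themselves across the set. ALK inhibitor replicate 1 had the highest treated value for 8 of the 10 genes, and replicate 2 the lowest for 7. Relative to the treated mean, the median deviation of the 10 genes in log2 CPM was 0.11 in replicate 1, -0.15 in replicate 2 and 0.02 in replicate 3. Over all tested genes, the corresponding medians were 0.0038, 0.0017 and 0.0015. Scaling holds these medians near 0, so they do not show how far a set of 10 genes can deviate. How often other genes were highest in replicate 1 or lowest in replicate 2 was not tested. In replicate 2, DUSP6 deviated by -0.50, ETV5 by -0.32 and SPRY4 by -0.28, while DUSP5 stood at 0.06 and SPRED1 at 0.01. The medians were between -0.04 and 0.0046 in WT CDK9 cells and between -0.03 and 0.05 in Tyr19Phe CDK9 cells. Replicate 2 was also the treated library with the fewest detected genes, and the part of this in its feedback gene values was not tested. When ALK inhibitor replicate 2 and Tyr19Phe CDK9 replicate 3 were both left out, SPRY4 (log2 fold change 0.53, adjusted p = 0.0137) was called beside ETV5 in the inhibitor comparison, and DUSP4 was no longer called in the direct comparison (adjusted p = 0.0638).

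**Figure D4:**
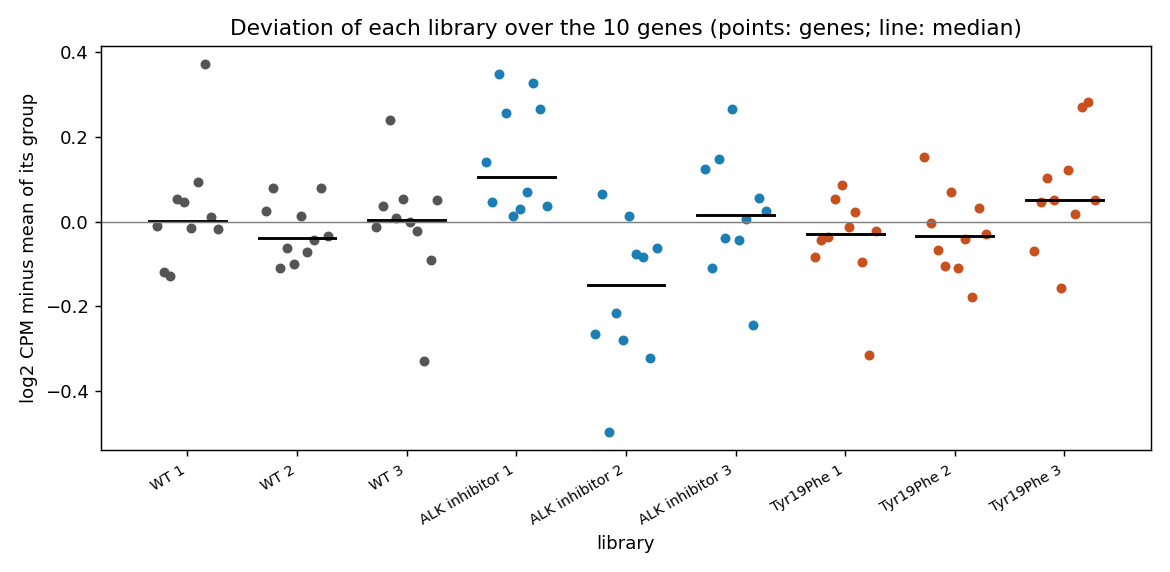
Deviation of each gene (point) from the mean log2 CPM of its group in the 9 libraries, with the median of the 10 genes as a line. ALK inhibitor replicate 2 has the lowest median at -0.15 and ALK inhibitor replicate 1 the highest at 0.11.

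Profiles over the 9 libraries were compared by the root mean square distance of log2 CPM after centring each gene on its mean. Within the set, SPRY2 and SPRED2 were closest, at 0.0858, and DUSP4 and DUSP5 were farthest apart, at 0.538. For DUSP5, the gene with the smallest adjusted p, the nearest of 11132 other genes were ALDH3A2 (0.0738), a fatty aldehyde dehydrogenase, SCARB2 (0.0814), a lysosomal membrane protein, and SORCS2 (0.0831), a sorting receptor, against a median distance of 0.392. Their log2 fold changes in Tyr19Phe CDK9 cells were -0.69, -0.67 and -0.76, and with the inhibitor 0.09, 0.06 and 0.09.

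Other genes of the pathway were grouped in 5 lists by role, and their calls stand beside the shares of 4.55% and 18% over all tested genes in the inhibitor and Tyr19Phe CDK9 comparisons with WT CDK9 cells. Among 11 further DUSP, SPRY, SPRED and PEA3 genes, 1 rose and 0 fell with the inhibitor, 2 rose and 2 fell in Tyr19Phe CDK9 cells, and the medians of their log2 fold changes were 0.23 and 0.10. DUSP1 and DUSP10, phosphatases that act on JNK and p38, rose in Tyr19Phe CDK9 cells by log2 fold changes of 0.32 (adjusted p = 0.00198) and 0.64 (adjusted p = 1.31e-05). DUSP16, a JNK phosphatase, and DUSP9, an ERK phosphatase at a mean of 2.35 CPM, fell there by -0.41 (adjusted p = 0.00597) and -1.49 (adjusted p = 0.0112). With the inhibitor, none of these 4 was called. The gene that rose was DUSP7, an ERK phosphatase, at 0.27 (adjusted p = 0.0337), and the count of 1 fell to 0 without WT CDK9 replicates 1 or 3 or any one of the treated libraries. Like DUSP4 and DUSP5, the relatives called in Tyr19Phe CDK9 cells thus included genes that rose and genes that fell. In the direct comparison, 2 of the 11 were higher and 4 lower in Tyr19Phe CDK9 cells, beside 20.7% of all tested genes called.

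Of 13 other ERK target genes, 1 rose and 2 fell with the inhibitor, and 2 rose and 2 fell in Tyr19Phe CDK9 cells, with median log2 fold changes of -0.10 and 0.01. At an unadjusted p under 0.05, 2 were higher and 8 lower with the inhibitor, beside 15.1% of all tested genes in either direction, and in Tyr19Phe CDK9 cells 2 were higher and 4 lower, beside 29%. In Tyr19Phe CDK9 cells, CCND1, which encodes cyclin D1, rose by a log2 fold change of 0.32 (adjusted p = 1.32e-07), while the early response gene EGR1 changed by -0.81 (adjusted p = 8.22e-06). IER3 rose in both comparisons, by 0.22 with the inhibitor (adjusted p = 0.00797) and 0.35 in Tyr19Phe CDK9 cells (adjusted p = 5.93e-06). The EGFR ligand gene HBEGF was lower in both, at -0.57 (adjusted p = 1.16e-04) and -0.31 (adjusted p = 0.0152). EPHA4, an ephrin receptor gene, was also lower with the inhibitor, at -0.61 (adjusted p = 0.00139). In the direct comparison, 5 of the 13 were higher and 2 lower in Tyr19Phe CDK9 cells. Beside them, 20.7% of all tested genes were called (9.57% higher and 11.1% lower). The calls of the list fell from 7 to 3 without ALK inhibitor replicate 3 and to 4 without Tyr19Phe CDK9 replicate 2. The 3 calls with the inhibitor became 5 without ALK inhibitor replicate 1 and 5 with DESeq2.

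Of the 20 genes of the cascade from adaptors to ERK and its kinases, 0 were called in either direction with the inhibitor by edgeR or by DESeq2. At an unadjusted p under 0.05 with edgeR, 2 were higher and 0 lower with the inhibitor, beside 15.1% of all tested genes in either direction. In Tyr19Phe CDK9 cells 4 were called lower and 0 higher. As a share in either direction this is near the 18% of all tested genes, of which 7.61% were higher and 10.4% lower. They included the phosphatase gene PTPN11 and the ERK-activated kinases RPS6KA1 and RPS6KA3, with log2 fold changes of -0.15, -0.39 and -0.26 (adjusted p = 0.0109, 8.13e-06 and 0.00370). The median of the list was 0.02 with the inhibitor and -0.07 in Tyr19Phe CDK9 cells. In the direct comparison 5 of the 20 were lower and 0 higher, beside 20.7% of all tested genes (9.57% higher and 11.1% lower). Of 12 other negative regulators, 1 rose and 1 fell with the inhibitor, and 2 rose and 2 fell in Tyr19Phe CDK9 cells, with medians of 0.0012 and -0.09. The calls with the inhibitor were RASA1 at 0.23 (adjusted p = 0.0179) and the receptor inhibitor gene LRIG1 at -0.44 (adjusted p = 0.0302). The count was 1 without WT CDK9 replicate 2 or without ALK inhibitor replicates 2 or 3, and 0 without WT CDK9 replicates 1 or 3 or ALK inhibitor replicate 1. NF1, the neurofibromin gene whose product SPRED1 recruits, fell in Tyr19Phe CDK9 cells, at -0.30 on the log2 scale (adjusted p = 2.01e-04). The ubiquitin ligase gene CBL fell there by 0.24 on the log2 scale (adjusted p = 0.00175). RASA1, another inactivator of RAS, and LZTR1, an adaptor for RAS degradation, rose there by 0.32 (adjusted p = 1.22e-04) and 0.55 (adjusted p = 7.54e-04). Of the 12 other negative regulators, 1 was higher and 5 lower in the direct comparison, beside the same 20.7%.

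Of 21 receptor tyrosine kinase and ligand genes, 17 were tested, and ALK, LTK, ALKAL1 and ALKAL2 had too few counts. With the inhibitor 1 rose and 5 fell, beside 4.55% of all tested genes called, and in Tyr19Phe CDK9 cells 2 rose and 5 fell, beside 18%, with median log2 fold changes of -0.11 and -0.12. ERBB2, a receptor at a mean of 1965 CPM, was higher with the inhibitor by a log2 fold change of 0.54 (adjusted p = 2.96e-13) and lower in Tyr19Phe CDK9 cells at -0.29 (adjusted p = 5.40e-08), a direct difference of -0.84 (adjusted p = 1.17e-18). EGFR was lower in both groups, at -0.15 (adjusted p = 0.0109) and -0.57 (adjusted p = 3.43e-13). The growth factor gene FGF2 had -0.06 with the inhibitor (adjusted p = 0.600) and -0.59 in Tyr19Phe CDK9 cells (adjusted p = 1.73e-12). NRG1, a ligand of the ERBB receptors, fell with the inhibitor at -0.28 (adjusted p = 0.00319) and rose in Tyr19Phe CDK9 cells at 0.24 (adjusted p = 0.00382). The receptor genes FGFR2, FGFR4 and AXL completed the calls with the inhibitor, at -1.20, -0.31 and -0.27. PTN, a proposed ligand of ALK, rose in Tyr19Phe CDK9 cells at 0.90, and ERBB3 and AXL fell there at -1.56 and -0.11. In the direct comparison, 4 of the 17 were higher and 4 lower in Tyr19Phe CDK9 cells, beside 20.7% of all tested genes called.

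**Figure D5:**
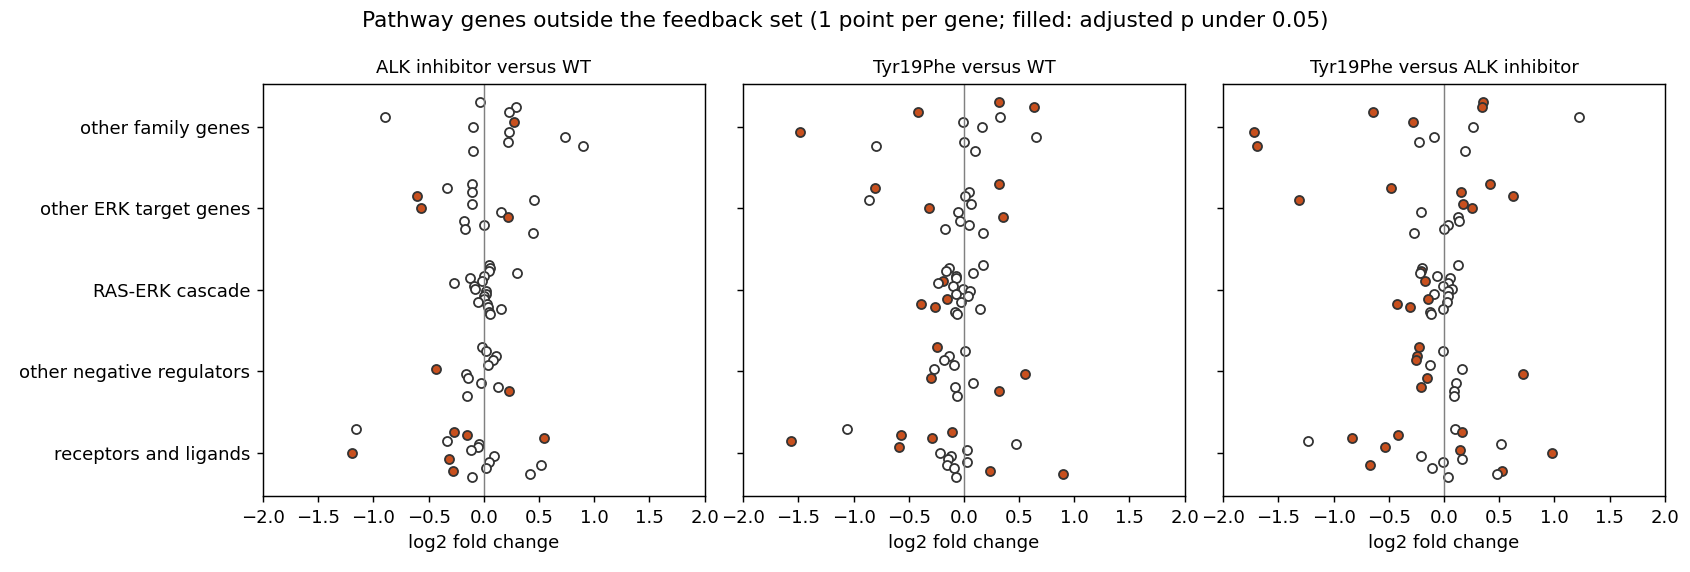
Log2 fold changes of pathway genes outside the feedback set, with 1 point per tested gene in 5 lists and the 3 comparisons in panels, filled where the adjusted p was under 0.05. For the cascade from adaptors to ERK, 0 of 20 points are filled with the inhibitor, beside 4.55% of all tested genes. For Tyr19Phe CDK9, 4 of 20 are filled, all below 0, beside 18% of all tested genes (7.61% higher and 10.4% lower).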

How the data were processed

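RNA of SKOV3 cells was sequenced by a company and mapped by the authors to hg38. The submitters' processing notes name CASAVA, HISAT2 2.0.5 and featureCounts 1.5.0-p3, and the annotation release and strandedness are not given in the sources used here. The deposited values are whole read counts per gene and library, without normalization, in 1 table whose 9 library columns match the labels. The tools were R 4.3.3, edgeR 4.0.16, limma 3.58.1 and, as an alternative, DESeq2 1.42.0, with Python 3.11.15 with numpy 2.4.6 and matplotlib 3.10.9. Genes passed filterByExpr with a minimum count of 10 and a minimum total of 15. Libraries were scaled by TMM, with factors between 0.986 and 1.01, and log2 CPM used a prior count of 2. edgeR's quasi-likelihood fit took the 3 group means from the 9 libraries together, which left 6 residual degrees of freedom. Because the fit draws the spread of each gene towards that of other genes, tests and intervals rest on more than these 6. Intervals are 95%, and p-values were adjusted by the Benjamini-Hochberg method over the 16350 tested genes. A floor of 3 counts corresponded to 0.102 to 0.165 CPM and covers counting error only. Scripts were tested on simulated data in which the changed genes were known.

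The feedback genes, the lists and the alternatives were chosen with earlier results of these data known. Named were all 10 feedback genes, up to 4 genes per list with the smallest adjusted p in any comparison, the 3 genes averaging 5 CPM or more that were nearest to the feedback gene with the smallest adjusted p, genes overlapping a feedback gene, CDK9 and ALK; the epithelial markers, COL1A1 and, from the lists, DUSP7, EPHA4, LRIG1, FGFR2, FGFR4, AXL, PTN and ERBB3 were named after their values were seen. One gene that the rule selects is not reported here. Alternatives were DESeq2's size factors, upper quartile or library size scaling, DESeq2, no filter, at least 10 counts in every library, a replicate block, thinning to the smallest library, an adjusted p under 0.01, a fit of the compared groups alone and each library left out in turn. Leaving out the libraries with the fewest detected genes was added after the data had been seen.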

Additional observations from a re-analysis of the deposited data

How the results depend on the processing

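In the inhibitor comparison, 1 gene was called, and 2 were called with scaling by library size (ETV5 and SPRED2), without ALK inhibitor replicate 2, and with both libraries of fewest detected genes left out (ETV5 and SPRY4). Leaving out each library in turn gave 1 to 2. Calls numbered 2 to 4 for Tyr19Phe CDK9 against WT CDK9 cells and 4 to 7 in the direct comparison over all alternatives. The median log2 fold changes kept their direction, at 0.06 to 0.21, -0.13 to -0.03 and -0.36 to -0.22.

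Signs turned only among uncalled values near 0, and the cause was not tested. DUSP6 in the direct comparison was 0.0024 with the replicate block. With both libraries of fewest detected genes left out, the inhibitor values were 0.043 for DUSP4, -0.011 for DUSP5 and 0.17 for DUSP6. With each library left out in turn, the inhibitor values ranged from -0.15 to 0.043 for DUSP4, from -0.036 to 0.070 for DUSP5 and from -0.23 to 0.17 for DUSP6. In Tyr19Phe CDK9 cells DUSP6 ranged from -0.13 to 0.068 and SPRED2 from -0.0057 to 0.077, and in the direct comparison DUSP6 ranged from -0.23 to 0.17.

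Libraries with the same replicate number share only a number, with correlations of their deviations between -0.012 and 0.026. A replicate block gave 1, 3 and 7 calls in the 3 comparisons, adding SPRED2 to the direct comparison. Over all tested genes, an adjusted p under 0.01 gave 427, 1850 and 2088 calls instead of 744, 2940 and 3387, and leaving out WT CDK9 replicate 1 gave 491 in the inhibitor comparison. No scaling moved the median of all tested genes by more than 0.03 on the log2 scale. DUSP6 and ETV4 had the fewest counts of the 10 genes, at 44 to 101 and 75 to 179 per library, and the widest intervals. The parts of depth and of spread between libraries in these were not tested.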
